A study of Mus musculus with 45 samples.

Results

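The genes described here encode hypothalamic neuropeptides: Pmch, Hcrt, Oxt, Avp, Trh, Cartpt, Ucn3 and Agrp, together with Resp18, a protein of peptide-secreting cells. They were followed across 45 arrays of mouse brain tumours, and the question was which arrays and genotypes carried them, apart from how much neuronal RNA each array held in general. Members were found by gene symbol in the probe annotation, and where a gene had several probe sets, the brightest on average over the 45 arrays stood for it. Of the 9 genes named, 8 were measured, out of 17097 genes in all, and all 8 passed the filter on dim genes, which kept 11809. Agrp, the agouti-related peptide of feeding neurons, was not analysed here. The genes were chosen from values of these same arrays: Pmch and Ucn3 had stood out in the D842V tumours and Resp18 in the E7 del tumours, so levels and those contrasts are given as descriptions without a test.

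The tumours were a glioblastoma model in CD-1 nude mice, in which every group, the EGFRvIII tumours included, had a p53-null background. Per the series description, retroviruses carried wild-type PDGFRA, a receptor tyrosine kinase, or 1 of 6 mutants of it into cultured primary astrocytes without p53. The groups were Pdgfra D842V (5 arrays), C450 ins (5), E10 del.v2 (9), E10 del (5), V544ins (9), E7 del (3), Pdgfra WT (1) and, as the other oncogene, EGFRvIII (8), a truncated form of the EGF receptor. Titles carried numbers from 1 to 30 in 21 arrays and from 41 to 64 in 24 arrays, and these are called the lower and the upper range. D842V, C450 ins and E10 del had lower numbers only and E7 del, WT and EGFRvIII upper numbers only, whereas V544ins and E10 del.v2 had 3 arrays in the lower and 6 in the upper range. The labels do not say whether replicates are separate animals or cultures, and p-values cover the spread among the arrays alone, which may be technical. The source was labelled mouse brain, and a bulk array cannot tell fewer cells of a type from less RNA per cell.

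In the mouse brain these peptides belong to separate small populations of neurons. Melanin-concentrating hormone (Pmch) and orexin (Hcrt) are made by neighbouring but distinct neurons of the lateral hypothalamus that govern feeding, arousal and sleep. Oxytocin (Oxt) and vasopressin (Avp) are made by the large neurons of the paraventricular and supraoptic nuclei and released from the posterior pituitary, and thyrotropin-releasing hormone (Trh) drives the pituitary-thyroid axis. Cartpt encodes a feeding-related peptide found in the hypothalamus and elsewhere, Ucn3 encodes urocortin 3, a ligand of the receptor Crhr2, and Resp18 is found in neuroendocrine secretory granules. Rbfox3 encodes NeuN, a nuclear protein of most neurons, and served as the measure of general neuron content.

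Promoters are shown for the pairs that appeared in the same arrays, Pmch with Hcrt and Oxt with Avp, and for Ucn3, which followed another pattern. Each is the RefSeq sequence of the GRCm38.p6 build from 250 bases before to 50 bases from the transcript start that its table gives, 5′ to 3′ on the gene's own strand, and capitals mark the motifs searched. All 8 measured members were matched to a promoter, and for Oxt that start lies inside the annotated gene, which begins at 130574519. The same holds for Cartpt, whose window is chr13:99900634-99900933 (-). Its annotated gene, on the minus strand, begins at 99910179. Pmch lies at chr10:88090822-88091121 (+), Hcrt at chr11:100762882-100763181 (-), Oxt at chr2:130575919-130576218 (+), Avp at chr2:130582539-130582838 (-) and Ucn3 at chr13:3945300-3945599 (-).
Pmch: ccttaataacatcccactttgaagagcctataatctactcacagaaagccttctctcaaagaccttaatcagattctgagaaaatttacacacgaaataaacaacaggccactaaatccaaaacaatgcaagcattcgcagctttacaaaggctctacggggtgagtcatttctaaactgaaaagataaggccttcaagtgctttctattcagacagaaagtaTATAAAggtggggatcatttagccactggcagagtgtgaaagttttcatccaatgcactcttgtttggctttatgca
Hcrt: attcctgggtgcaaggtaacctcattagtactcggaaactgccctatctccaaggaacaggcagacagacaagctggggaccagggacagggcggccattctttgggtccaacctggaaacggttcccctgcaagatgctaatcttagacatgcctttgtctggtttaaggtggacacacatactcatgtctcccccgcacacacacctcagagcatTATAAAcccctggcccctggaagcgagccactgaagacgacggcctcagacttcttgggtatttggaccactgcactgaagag
Oxt: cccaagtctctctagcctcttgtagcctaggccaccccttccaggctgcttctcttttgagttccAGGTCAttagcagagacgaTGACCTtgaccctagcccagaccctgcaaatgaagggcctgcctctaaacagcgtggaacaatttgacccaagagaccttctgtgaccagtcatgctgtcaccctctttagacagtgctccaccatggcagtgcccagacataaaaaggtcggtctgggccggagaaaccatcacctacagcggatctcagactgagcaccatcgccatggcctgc
Avp: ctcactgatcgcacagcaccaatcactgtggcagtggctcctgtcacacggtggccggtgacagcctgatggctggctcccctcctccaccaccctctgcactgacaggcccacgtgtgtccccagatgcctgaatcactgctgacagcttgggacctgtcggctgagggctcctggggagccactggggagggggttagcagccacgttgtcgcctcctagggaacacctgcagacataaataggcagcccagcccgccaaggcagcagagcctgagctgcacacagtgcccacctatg
Ucn3: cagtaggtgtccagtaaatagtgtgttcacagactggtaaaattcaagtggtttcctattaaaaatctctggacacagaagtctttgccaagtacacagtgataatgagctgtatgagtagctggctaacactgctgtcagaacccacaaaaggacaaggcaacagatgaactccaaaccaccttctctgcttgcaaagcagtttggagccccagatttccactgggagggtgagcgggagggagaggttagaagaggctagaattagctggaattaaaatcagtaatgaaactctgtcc

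The motifs searched, on both strands, were TATAAA (the core of a TATA box), TGACCT (a nuclear receptor motif), TGACG (part of the cAMP response element) and TAATTA (a homeodomain core). Positions count back from the same transcript start. TATAAA lay at -27 in Pmch and at -33 in Hcrt, and 13.6% of the 32851 promoters in the table held it on either strand. Oxt held TGACCT at -185 (minus strand) and at -166 (plus strand), and 16.3% of all promoters held that motif. Avp, Ucn3 and Resp18 held none of the 4 motifs in this window. Trh held TGACCT and TGACG once each, and Cartpt held TGACG on both strands in an overlapping palindrome, against 20.8% of promoters with TGACG and 5.29% with TAATTA. Oxt and Avp are neighbours on chromosome 2, in opposite orientation with their 3′ ends facing each other, 3565 bases apart.

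Of the 45 arrays, 27 carried at least 1 member and 8 carried at least 4. A member was said to be carried by an array where its log2 signal was at least 2 above that gene's 25th percentile over the 45 arrays, a rule that describes and does not test. By it 71 of the 360 combinations of array and member were carried. No member was carried in 18 arrays, 1 was carried in 12 arrays and 2 in 6. The number of combinations depended on the step, and was 110 with a step of 1 and 46 with a step of 3.

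**Figure D1:**
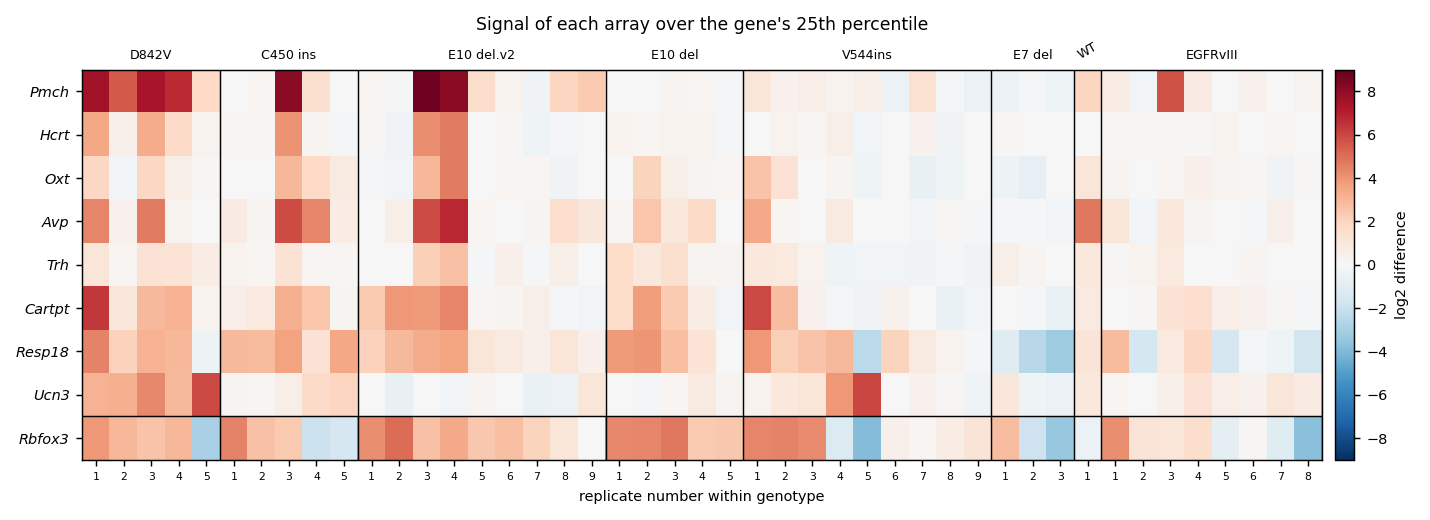
Each column is 1 array, grouped by genotype and numbered by replicate, and each line is a gene; colour gives the log2 signal minus the gene's 25th percentile over the 45 arrays. Dark red in several lines of the same column marks the 5 arrays with 6 or 7 members, 2 of D842V (replicates 1 and 3), 1 of C450 ins (replicate 3) and 2 of E10 del.v2 (replicates 3 and 4); the Rbfox3 line below does not follow them.

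The 5 arrays with the most members came from 3 genotypes. E10 del.v2 replicate 4 carried 7 members, with log2 signals of 11.15 for Pmch, 8.28 for Hcrt, 9.56 for Oxt, 10.38 for Avp, 5.92 for Trh, 7.41 for Cartpt and 10.34 for Resp18. E10 del.v2 replicate 3 carried the same 7, led by Pmch at 11.76, which was the highest Pmch value of all arrays. C450 ins replicate 3 carried 6, all of these except Trh, with Pmch at 11.16 and Avp at 9.42. Ucn3 was not carried in any of these 3 arrays. D842V replicate 1 carried 6 members, with Pmch at 10.57, Hcrt at 7.09, Avp at 7.97, Cartpt at 9.44, Resp18 at 11.24 and Ucn3 at 5.89. D842V replicate 3 carried the same 6, with Pmch at 10.44 and Ucn3 at 7.13. In both D842V arrays Oxt, at 6.75 and 6.80, lay just below its threshold of 6.91.

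Pmch, the peptide of the lateral hypothalamic sleep and feeding neurons, was carried by 9 arrays. In the D842V group its log2 signal was 10.57, 8.57, 10.44, 9.73 and 4.81, against 3.03, 3.18, 11.16, 4.48 and 3.05 in the C450 ins group. E10 del.v2 arrays ran from 2.72 through a median of 4.59 to 11.76. Pmch was thus high in 4 of 5 D842V arrays, 1 of 5 C450 ins arrays and 3 of 9 E10 del.v2 arrays, and the groups overlapped. E10 del arrays stayed between 2.84 and 3.26, E7 del arrays between 2.49 and 2.92 and V544ins arrays between 2.48 and 4.42, so that none of those 3 genotypes had an array over the threshold of 5.03. EGFRvIII arrays ran from 2.81 through a median of 3.35 to 8.78, with 1 array, replicate 3, high. The lowest value counted as carried was 5.40, in E10 del.v2 replicate 9, and the highest not counted was 4.998, in the WT array.

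**Figure D2:**
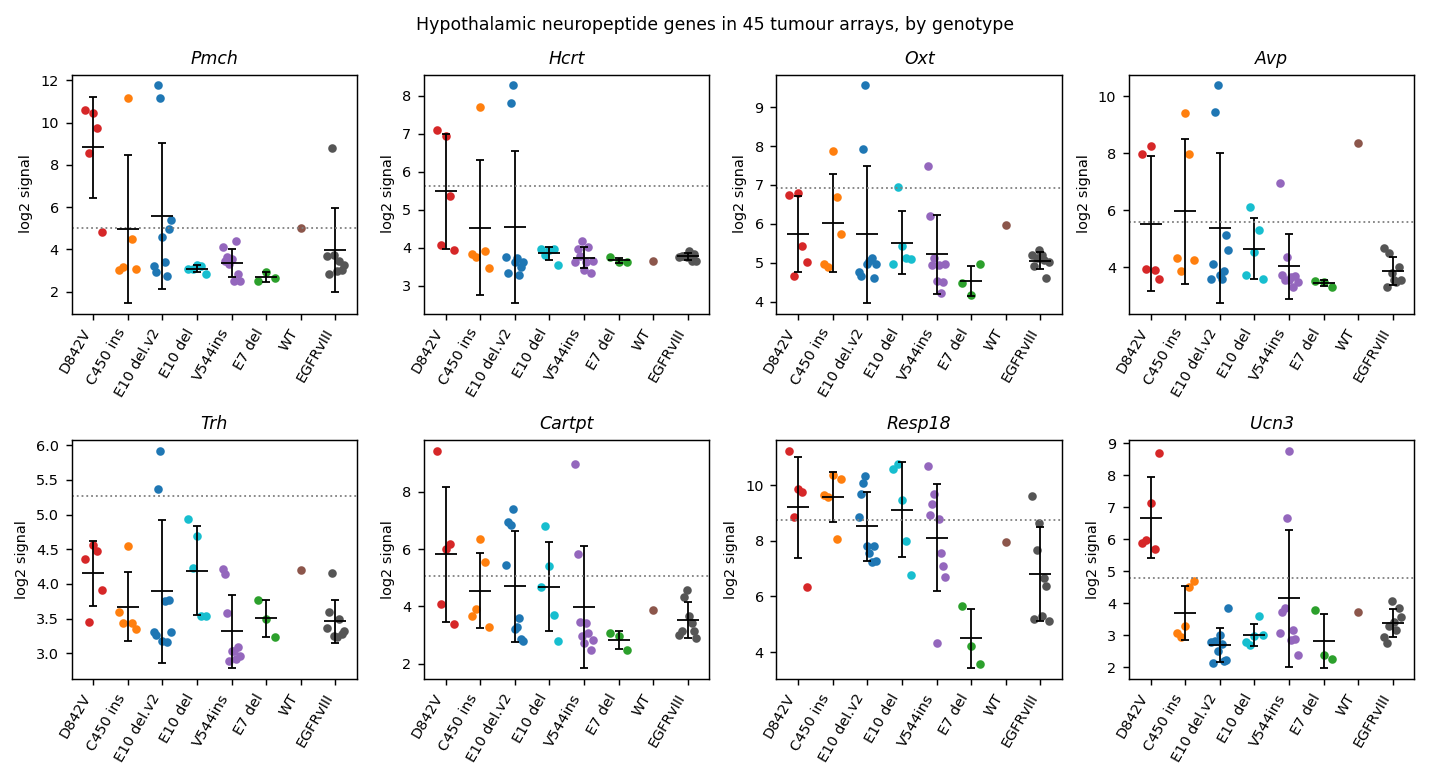
Log2 signal of the 8 measured members, 1 panel a gene; each point is an array, the black line and bar are the mean and SD of the genotype, and the dotted line is the level from which an array was said to carry the gene. The 5 D842V arrays all lie over the Ucn3 line at 4.79, and 4 of 5 over the Pmch line at 5.03; EGFRvIII arrays lie under the lines except replicate 3 for Pmch and replicate 1 for Resp18.

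Orexin transcripts (Hcrt) were carried by 5 arrays, and every one of the 5 also carried Pmch, Avp, Cartpt and Resp18. Hcrt was 7.09, 4.08, 6.95, 5.37 and 3.93 in the D842V arrays, 3.82, 3.75, 7.70, 3.90 and 3.46 in the C450 ins arrays, and 3.27 to 8.28 with a median of 3.64 in the E10 del.v2 arrays. The high arrays were the same 5 that carried 6 or 7 members. In the other groups Hcrt varied little: the SD was 0.28 in V544ins (n = 9), 0.18 in E10 del (n = 5) and 0.09 in EGFRvIII (n = 8). Pmch therefore appeared without Hcrt in 4 arrays, D842V replicates 2 and 4, E10 del.v2 replicate 9 and EGFRvIII replicate 3, and Hcrt never appeared without Pmch.

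Vasopressin and oxytocin moved together and reached arrays without Pmch. Avp was carried by 9 arrays and Oxt by 5, and all 5 Oxt arrays carried Avp, Cartpt and Resp18. V544ins replicate 1 had Oxt at 7.49 and Avp at 6.97, and E10 del replicate 2 had Oxt at 6.94 and Avp at 6.11, with Pmch at 4.12 and 3.06. In both, Hcrt stayed at 3.62 and 3.82. Avp without Oxt reached its threshold in C450 ins replicate 4, at 7.97 with Oxt at 6.68, and in the WT array, at 8.36 with Oxt at 5.97. It also did so in D842V replicates 1 and 3, at 7.97 and 8.24 with Oxt at 6.75 and 6.80. No E7 del array exceeded 3.50 for Avp, and no EGFRvIII array exceeded 4.67 for Avp or 5.34 for Oxt. Trh, the releasing hormone of the thyroid axis, had the smallest range, 2.89 to 5.92, and only E10 del.v2 replicates 3 and 4 carried it.

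Cartpt and Resp18, which neurons outside the hypothalamus also make, were the most widely carried, by 13 and 21 arrays. Cartpt was highest in D842V replicate 1, at 9.44, and V544ins replicate 1, at 8.99. E10 del.v2 replicate 2 had Cartpt at 6.93 with Avp at 4.11 and Pmch at 2.94, so Cartpt also appeared apart from the other peptides. Resp18 averaged 9.21 ± 1.82 in D842V (SD, n = 5), 9.58 ± 0.90 in C450 ins (n = 5), 9.11 ± 1.71 in E10 del (n = 5), 8.52 ± 1.24 in E10 del.v2 (n = 9), 8.11 ± 1.92 in V544ins (n = 9) and 4.49 ± 1.07 in E7 del (n = 3), against 6.81 ± 1.69 in EGFRvIII (n = 8). The step between E7 del and its nearest group exceeded the SD of either, and the 3 E7 del arrays, at 5.67, 4.23 and 3.58, overlapped only the lowest arrays of EGFRvIII and V544ins. Pituitary genes accompanied Resp18 in arrays with little Rbfox3. C450 ins replicate 5 had Resp18 at 10.23 with Rbfox3 at 5.75, and there growth hormone (Gh) was at 13.03, prolactin (Prl) at 13.54 and Pomc at 12.23. V544ins replicate 4 had Resp18 at 9.67 with Rbfox3 at 6.07, Gh at 12.66, Prl at 12.94 and Pomc at 12.59. Oxt and Avp, which are released in the posterior pituitary, were not carried in either array. Both were carried in C450 ins replicate 3, with Gh at 7.63 and Prl at 9.39. Both were also carried in E10 del replicate 2, with Pomc at 12.23 and Prl at 6.36. Neither was carried in E10 del replicate 3, with Gh at 10.57, Prl at 10.90 and Pomc at 9.73. The part of pituitary RNA in Resp18, Oxt or Avp was not tested.

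Ucn3 followed none of the other members closely, although 4 of the 7 arrays that carried it also carried Pmch and 5 carried Resp18. Pmch was carried by 9 and Resp18 by 21 of all 45 arrays. The log2 signal of Ucn3 was 5.89, 5.97, 7.13, 5.70 and 8.70 in the 5 D842V arrays, all of which carried it. C450 ins arrays ran from 2.93 to 4.71, E10 del arrays from 2.70 to 3.59, E10 del.v2 arrays from 2.14 to 3.86 and EGFRvIII arrays from 2.77 to 4.07. V544ins arrays had a median of 3.18 but reached 6.68 in replicate 4 and 8.77 in replicate 5. D842V therefore overlapped V544ins alone, through those 2 arrays. The mean of D842V, 6.68 ± 1.26 (SD, n = 5), and that of V544ins, 4.15 ± 2.14 (n = 9), were 2.52 apart, more than either SD. Outside those 7 arrays the highest value was 4.71, in C450 ins replicate 5, and the lowest inside was 5.70. A second probe set for Ucn3 ran only from 2.52 to 3.16 over the 45 arrays and did not show these differences, so the pattern rests on 1 probe set.

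General neuron content did not order the arrays as the peptides did. The 10 arrays highest in Rbfox3, at 11.45 to 12.31, included none that carried Pmch, Hcrt, Trh or Ucn3, 2 that carried Oxt, 2 that carried Avp, 6 that carried Cartpt and 10 that carried Resp18. Among the 10 arrays lowest in Rbfox3, at 3.41 to 6.48, 3 carried Ucn3, 2 carried Resp18 and 1 each carried Avp and Cartpt. The 5 arrays with the most members lay between these, with Rbfox3 from 9.63 to 11.20. C450 ins replicate 4 had Avp at 7.97 with Rbfox3 at only 5.32, and the WT array had Avp at 8.36 with Rbfox3 at 6.76. The highest Ucn3 values, 8.77 in V544ins replicate 5 and 8.70 in D842V replicate 5, stood beside Rbfox3 at 3.41 and 4.34, the first of which was the lowest Rbfox3 of all 45 arrays.

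**Figure D3:**
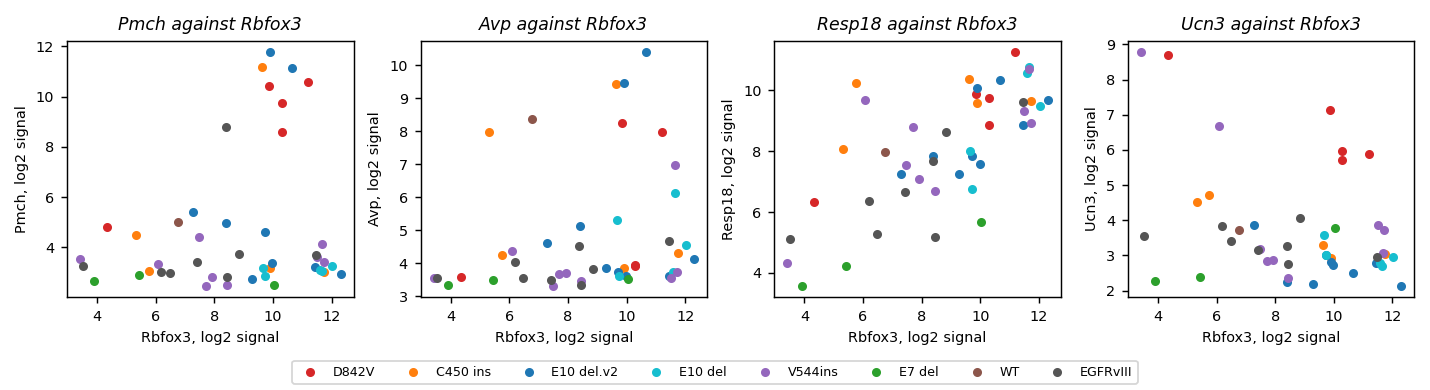
Log2 signal of Pmch, Avp, Resp18 and Ucn3 against that of Rbfox3, 1 point an array, coloured by genotype. Resp18 climbs with Rbfox3 (r = 0.70), high Pmch and Avp points sit at middle Rbfox3 (r = 0.20 and 0.19), and the highest Ucn3 points sit at the lowest Rbfox3 (r = -0.34).

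The 45 arrays came from few genotypes and differed in neuron content, with Rbfox3 from 3.41 to 12.31. Over these arrays Pearson r with Rbfox3 was 0.20 for Pmch, 0.24 for Hcrt, 0.27 for Oxt and 0.19 for Avp. It was 0.43 for Trh, 0.55 for Cartpt, 0.70 for Resp18 and -0.34 for Ucn3. A straight line on Rbfox3 thus shared 3.90% of the variance of Pmch and 49.5% of that of Resp18. After that line was taken off each gene, D842V arrays remained 4.07 ± 1.82 above the line for Pmch and 3.04 ± 0.74 above it for Ucn3 (SD, n = 5). E7 del arrays lay below the line for Resp18, at -2.34 ± 0.70 (n = 3).

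The members other than Ucn3 also went together from array to array. Of the 28 pairs of members 19 had r over 0.5, with a median r of 0.64, and after Rbfox3 was taken off 18 did, with a median of 0.57. The closest were Oxt with Avp, at 0.89 before and 0.89 after, and Pmch with Hcrt, at 0.88 before and 0.87 after. Hcrt also went with Avp (0.79) and Oxt (0.78). Ucn3 had r between -0.02 and 0.27 with the other members, and between 0.10 and 0.37 after Rbfox3. These values are descriptions over the same 45 arrays, in which a few high arrays weigh heavily.

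**Figure D4:**
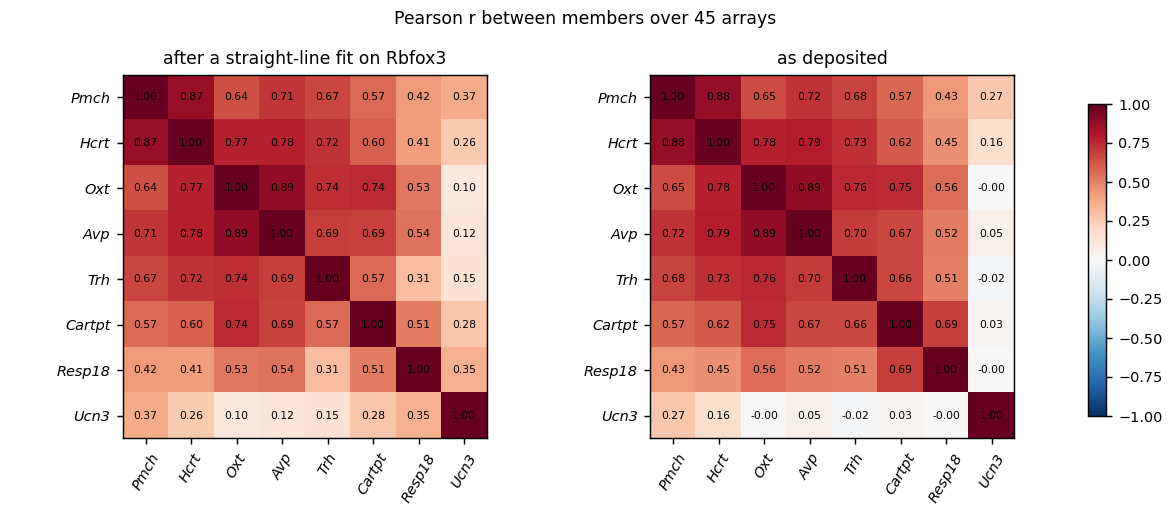
Pearson r between each 2 members over the 45 arrays, after a straight-line fit on Rbfox3 (left) and as deposited (right). The block of the 7 members other than Ucn3 is largely similar in both panels, with Oxt and Avp at 0.89, and the Ucn3 line is pale. Resp18 has a lower r on the left with Trh (0.31 against 0.51) and with Cartpt (0.51 against 0.69).

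The genes whose pattern over the 45 arrays was most like the mean z score of the members were Irs4 (r = 0.86), an adaptor of insulin receptor signalling, Baiap3 (0.86), a protein of dense-core vesicle trafficking, and Magel2 (0.82), an imprinted gene of the Prader-Willi region. Sncg (0.78), Ngb (0.77), Scn9a (0.75), the orphan receptor Gpr101 (0.74), Zcchc12 (0.73), Lbhd2 (0.73) and Dgkk (0.72) followed. After Rbfox3 was taken off, Irs4 (0.88), Baiap3 (0.85) and Magel2 (0.79) stayed in front and Usp29 (0.71) replaced Zcchc12 among the first 10. Over all 11801 other genes kept, 1.58% had r over 0.5, and 0.703% after Rbfox3. Irs4 was 8.13 in E10 del.v2 replicate 4, 7.56 in D842V replicate 1 and 7.42 in V544ins replicate 1, against 3.12 to 5.14 in the EGFRvIII arrays. Its 8.13 and 7.56 fell on arrays with 7 and 6 members, and its 7.42 on an array with 4. Irs4 was also 6.67 in C450 ins replicate 5 (1 member) and 6.25 in V544ins replicate 4 (2 members). In E10 del.v2 replicate 3, with 7 members, it was 6.29.

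For Ucn3 the most alike genes were different ones: Pfkfb4 (r = 0.88), an enzyme that regulates glycolysis, Utp14b (0.86) and Gm26519 (0.86). Pfkfb4 averaged 7.29 in D842V against 5.69 in the other 5 mutants, a log2 difference of 1.59 ± 0.37 (SE; limma adjusted p = 0.0302). Utp14b differed by 0.98 ± 0.21 (adjusted p = 0.0151) and Gm26519 missed the threshold (adjusted p = 0.108). The Pfkfb4 call was lost on leaving out D842V replicate 2, 3, 4 or 5 or E7 del replicate 2, and the Utp14b call on leaving out D842V replicate 3, 4 or 5, with adjusted p up to 0.170 and 0.153. The same arrays chose these genes and tested them, so the calls are no independent support.

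Of 23 measured transcription factors on the hypothalamic list, 9 passed the filter, among them Nkx2-2 (median log2 signal 9.03), Irx5 (6.32) and Six3 (5.55), which other cells also make. Sim1 and Otp, needed in mouse for the neurons that make Oxt, Avp and Trh, ran from 2.53 to 3.14 and from 2.59 to 3.59, and Nkx2-1 from 2.58 to 3.12, and these 3 did not pass. Among the 9 that passed, Isl1 had the highest r to the members' mean (0.53), with a range of 2.56 to 8.11. Lhx1, which did not pass, had a higher r (0.65), with a range of 2.62 to 4.42. Other hypothalamic peptides partly followed, and 3 of the 18 that passed the filter had r over 0.5. These were Tac2, which encodes neurokinin B (0.62), Pnoc (0.57) and neurotensin (Nts, 0.55). After Rbfox3 was taken off, 1 remained, Tac2 at 0.57. Galanin (Gal) had 0.48 and Crh 0.45, while Npvf (0.05), Nmb (0.06) and Pdyn (0.14) lay near 0. Adcyap1, which did not pass the filter, had 0.67. Pomc, which the pituitary also makes, had r = 0.19, and Npff went the other way, at -0.47. Among receptors of the members, 3 of 11 measured passed the filter, with r of 0.64 for the Trh receptor Trhr, 0.31 for Oxtr and 0.17 for the Pmch receptor Mchr1. Crhr2, the receptor of urocortin 3, ran from 3.07 to 3.63 and did not pass.

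Marker lists of other cell types moved with the members as well. The list mean, taken over all measured genes of a list, with the highest r to the members' mean was that of the choroid plexus (0.66 over 9 genes), whose genes Kl, Kcnj13, Clic6, Otx2, Slc4a5, Folr1 and Ttr each had r over 0.5. Thalamus and habenula followed (0.62 over 11), led by Calb2 (0.69) and Slc17a6 (0.62), the glutamate transporter of thalamic and hypothalamic neurons, then other hypothalamic peptides (0.57 over 22), cerebellum and hindbrain (0.56 over 7), receptors of the members (0.52 over 11) and tanycytes (0.52 over 7). Of the 7 cerebellum and hindbrain genes Calb1 alone had r over 0.5, at 0.52, against -0.26 to 0.13 for the others. Peptide processing reached 0.50 over 14 genes, general neuron genes 0.43 over 17, hypothalamic transcription factors 0.43 over 23 and myelinating oligodendrocytes 0.32 over 9. After Rbfox3 the general neuron list was still at 0.35. Cortex and hippocampus reached 0.30 over 10 genes, and -0.05 after Rbfox3, striatum 0.16, pituitary 0.09, endothelium -0.02 and microglia -0.37. The part of these cell types in the members' signal was not tested. Transthyretin (Ttr), the secreted carrier of the choroid plexus, was at 13.08 in D842V replicate 1 and at 13.28 in the C450 ins array with 6 members. Of the E10 del.v2 arrays with 7 members, replicate 4 had Ttr at 12.82 and replicate 3 at 8.39. D842V replicate 3, with 6 members, had it at 10.52. Ttr was also high in arrays with fewer members. It was 13.42 in E10 del replicate 2 (4 members), 13.09 in D842V replicate 2 (3) and 13.01 in D842V replicate 5 (1).

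The comparison of PDGFRA mutants with EGFRvIII was not known to have been used to choose the genes, and no member passed the test in it. Its mutant mean includes D842V and E7 del, the groups in which Pmch, Ucn3 and Resp18 had been noticed. Of 11809 genes, 1051 passed at an adjusted p under 0.05 (limma, Benjamini-Hochberg over all genes), which is 8.9%, with 419 higher (3.55%) and 632 lower (5.35%) in the mutants, whereas 0 of 8 members did, with Resp18 alone at an unadjusted p under 0.05. All 8 differences were above 0, with a median of 0.66 against -0.02 over all genes. Of all genes 5623 of 11809 were above 0, and of the general neuron genes 17 of 17 were. Resp18 averaged 8.17 over the 6 mutant means against 6.81 in EGFRvIII, a log2 difference of 1.36 ± 0.61 (SE; limma adjusted p = 0.139), and it passed, at 1.76 ± 0.62 (adjusted p = 0.0415), when EGFRvIII replicate 1 was left out. Avp differed by 0.97 ± 0.69 (adjusted p = 0.360), Cartpt by 0.90 ± 0.66 (0.368), Pmch by 0.78 ± 0.89 (0.576) and Hcrt by 0.53 ± 0.47 (0.462). Ucn3 differed by 0.46 ± 0.45 (0.512), Oxt by 0.41 ± 0.43 (0.548) and Trh by 0.33 ± 0.25 (0.386), while Rbfox3 itself differed by 1.30 ± 0.91 (0.347). Within titles 41 to 64, where mutants and EGFRvIII both lie, 6 of the 8 differences turned below 0, among them Pmch at -0.25 and Resp18 at -0.07, and only Avp (0.28) and Hcrt (0.11) stayed above.

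Against those 3.55% higher and 5.35% lower among all genes, of 18 other hypothalamic peptides 0 were higher and 1 lower: Npff, an RF-amide peptide, fell by 0.43 on the log2 scale (-0.43 ± 0.12, adjusted p = 0.0205). Of 9 hypothalamic transcription factors 1 was lower, Tbx3, at -0.51 ± 0.14 (adjusted p = 0.0162). None of 3 receptors and none of 14 genes of peptide processing passed, and of 17 general neuron genes 2 were higher, Snap91 at 1.002 ± 0.31 (adjusted p = 0.0368) and Tubb3 at 1.24 ± 0.40 (0.0467). Zcchc12, one of the genes most like the members, was higher by 1.40 ± 0.40 (0.0256). All 5 of these calls were lost with the title range as a block and within the upper range alone, and on leaving out EGFRvIII replicate 5, with Npff then at an adjusted p of 0.126. Tubb3 lost its call on leaving out any of 26 arrays.

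In D842V, where Pmch and Ucn3 had been noticed, all 8 members lay above the mean of the other 5 mutants, and the values are given without a test. Over all genes 5666 of 11809 lay above that mean. So did 16 of 17 general neuron genes, 9 of 9 choroid plexus genes and 1 of 7 striatum genes. Pmch averaged 8.82 against 3.94, a log2 difference of 4.89 ± 1.10 (SE), and Ucn3 averaged 6.68 against 3.27, a difference of 3.40 ± 0.56. Cartpt differed by 1.67 ± 0.81, Hcrt by 1.42 ± 0.58, Resp18 by 1.24 ± 0.75, Avp by 0.84 ± 0.85, Trh by 0.44 ± 0.31 and Oxt by 0.33 ± 0.53. Their median was 1.33 against -0.01 over all genes, of which 69 passed the test (0.584%). With Rbfox3 as a covariate the Pmch and Ucn3 differences were 4.82 ± 1.09 and 3.50 ± 0.47, and within titles 1 to 30, where all D842V arrays lie, they were 4.35 ± 1.33 and 3.42 ± 0.39. Resp18 and Oxt were below 0 there, at -0.09 and -0.18. Rbfox3 averaged 9.20 in D842V against 8.84, a difference of 0.36 ± 1.12 (adjusted p = 0.951).

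Outside the members, 1 of 18 other hypothalamic peptides passed in D842V. Npb, neuropeptide B, averaged 5.03 against 3.84, a difference of 1.19 ± 0.20 (limma adjusted p = 0.00158). It kept its call on leaving out each array in turn, with adjusted p up to 0.0272. Its signal was low, with a median of 3.78 and a maximum of 5.72 over all arrays. The D842V mean lay little above the filter level of 4.79, and Npb was among the genes tested in 10 of the 11 other settings. Of 9 choroid plexus genes Ttr alone passed, at 12.44 against 7.75, a difference of 4.69 ± 1.04 (adjusted p = 0.0232), a call that was lost on leaving out any of the 5 D842V arrays and, at an adjusted p of 0.0633, with the title range as a block. None of 9 hypothalamic transcription factors, 3 receptors, 17 general neuron genes or 8 thalamus and habenula genes passed.

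In E7 del, where Resp18 had been noticed, all 8 members lay below the mean of the other 5 mutants, again without a test. Over all genes 6497 of 11809 lay above that mean, against 0 of 17 general neuron genes and 0 of 14 genes of peptide processing. Of the microglia and macrophage genes 7 of 8 lay above it. Resp18 averaged 4.49 against 8.91, a log2 difference of -4.41 ± 0.93 (SE), and Pmch 2.69 against 5.17, a difference of -2.48 ± 1.36. The others ran from -1.92 for Cartpt to -0.34 for Trh, the median of the 8 was -1.45 against 0.05 over all genes, and 0.356% of genes passed. Trh was above 0, at 0.16, with the title range as a block and at 0.13 within titles 41 to 64. With Rbfox3 as a covariate Resp18 was at -3.02, Cartpt at -0.85 and Trh at -0.061. Rbfox3 averaged 6.45 against 9.38, a difference of -2.93 ± 1.39 (adjusted p = 0.278). No gene of the neuron lists passed, while 4 of 9 genes of myelinating oligodendrocytes were lower: Aspa at -3.16 ± 0.58 (adjusted p = 0.00935), Mbp at -2.41 ± 0.52 (0.0269), Mog at -2.69 ± 0.63 (0.0409) and Mal at -2.91 ± 0.70 (0.0475). All 4 lost the call on leaving out E7 del replicate 2 or 3, with limma adjusted p up to 0.536. They also lost it with the title range as a block and within titles 41 to 64, with adjusted p up to 0.953. Of the 44 fits that left out 1 array, 28 lost the call of Mal and 10 that of Mog. Mal also lost it with arrays centred, with the mean of its probe sets and with Rbfox3 as a covariate, at adjusted p of 0.0609, 0.0581 and 0.0870. The parts of neuron and myelin content in the low Resp18 of E7 del were not tested.

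Within V544ins and E10 del.v2, the genotypes that span both title ranges, no member and no other gene differed between the ranges at an adjusted p under 0.05 (limma, 0% of 11809 genes, with 2737 at an unadjusted p under 0.05). Cartpt averaged 3.69 in the 12 upper arrays against 5.64 in the 6 lower ones, a log2 difference adjusted for genotype of -1.95 ± 0.86 (SE; adjusted p = 0.192), and Resp18 7.86 against 9.24, a difference of -1.39 ± 0.70 (0.241). Oxt differed by -0.88, Trh by -0.69, Pmch by -0.68, Avp by -0.66, Hcrt by -0.45 and Ucn3 by 0.39, with adjusted p from 0.258 to 0.770, and Rbfox3 by -2.81 ± 0.85 (0.103), which passed with array weights and without E10 del.v2 replicate 2. Members' median was -0.68 against 0.05 over all genes. The signs of Pmch, Hcrt and Avp rested on E10 del.v2 replicate 3, without which they were 0.55, 0.18 and 0.12, and that of Ucn3 on V544ins replicate 5, without which it was -0.05. Since D842V, C450 ins and E10 del lie wholly in the lower range and E7 del and EGFRvIII wholly in the upper, range and genotype cannot be told apart for differences between those groups.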

How the data were processed

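RNA of 45 mouse brain tumours was measured on Affymetrix 3′ IVT arrays from 100 ng of total RNA, per the labels' protocols. The authors deposited log2 signals, 1 for each of 45141 probe sets, made with RMA, which corrects background, quantile-normalises arrays and summarises probes, per the submitters' processing notes; version and settings are not given in the sources used here. They were used as deposited. Probe sets with 1 gene symbol (28898, against 551 with several and 15692 with none) gave 17097 genes, each by its probe set with the highest mean. Genes with 3 or more arrays over 4.79, the median of the whole table, were tested with limma 3.58.1 in R 4.3.3 (lmFit, eBayes), over all 8 groups in 1 fit, or over genotype plus title range in V544ins and E10 del.v2, with Benjamini-Hochberg adjustment over all 11809 genes and a threshold of 0.05. Mutants were set against EGFRvIII by the unweighted mean of 6 mutant means, and D842V and E7 del against the mean of the other 5; the WT array entered no contrast. The script was tested on simulated data. For arrays, their number limits the precision.

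The members and the 15 gene lists were chosen with earlier results of these data known. The names given in the text are the members, Rbfox3, up to 4 genes of a list with the smallest p in a contrast, the 10 genes most like the members' mean z score with and without Rbfox3 taken off, and the 3 genes most like each peptide. Genes of lists named for their r or level (such as Sim1, Otp, Nkx2-1, Nkx2-2, Irx5, Six3, Calb1, Tac2, Calb2, Kl and Crhr2) were chosen after their values were seen. Alternatives were other filters, the mean of all probe sets, centring, a trended robust prior, array weights, Rbfox3 as a covariate, the title range as a block or alone, 1 group of mutants, and leaving out each array. A covariate from the general neuron list, and leaving out the 4 arrays lowest on the first principal component (41.0% of variance), were chosen after seeing the data. Promoters came from a RefSeq table of GRCm38.p6.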

Additional observations from a re-analysis of the deposited data

Results flagged for a closer look

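Within groups of 4 to 10 arrays, the highest or lowest array stood far from its neighbours in 8 of 54 combinations of gene and genotype. The gap rule used has limits that chance meets in about 1 in 20 groups of unselected values. The members were chosen from these same arrays and the combinations share arrays, so the 8 cannot be set against that rate. No count over all genes was made. C450 ins replicate 3 stood out for Pmch at 11.16 (next 4.48), for Hcrt at 7.70 (next 3.90) and for Trh at 4.55 (next 3.59). EGFRvIII replicate 3 stood out for Pmch at 8.78 (next 3.73) and for Trh at 4.15. Oxt stood out in E10 del replicate 2 at 6.94 (next 5.45), and Avp in V544ins replicate 1 at 6.97 (next 4.37). Rbfox3 was far below the rest of the D842V group in replicate 5, at 4.34 (next 9.86), an array that held the highest Ucn3 of that genotype. The Pdgfra WT array, which entered no comparison, had Avp at 8.36, against a highest value of 4.67 in EGFRvIII.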

How the results depend on the processing

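No paired analysis was possible because replicate numbers were given in accession order and pair no arrays. Genes called between mutants and EGFRvIII numbered 1051, but 310 with the title range as a block and 80 within titles 41 to 64, and 185 to 2239 when arrays were left out in turn (2239, 499, 185 and 329 without EGFRvIII replicate 1, 4, 5 and 6). Between title ranges 0 became 3 without a filter, 3577 with array weights and 2933 without the 4 arrays lowest on component 1, of which E10 del.v2 replicate 2 alone was in this fit, and 0 to 2933 when arrays were left out (107 and 42 without E10 del.v2 replicate 3 and 4, 1 each without V544ins replicate 2 and E10 del.v2 replicate 6). For D842V 69 became 106 without a filter, 4672 with array weights, 230 and 442 with Rbfox3 or the neuron list as covariate, 207 without the 4 arrays and 391 within titles 1 to 30, and 10 to 133 when arrays were left out. For E7 del 42 became 80 without a filter, 27 centred, 6624 with array weights, 71 and 128 with those covariates, 17 without the 4 arrays, 2 with the block and 0 within titles 41 to 64, and 4 to 85 when arrays were left out. The count of carried combinations, 71, was 110 and 46 with steps of 1 and 3, by construction.

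Signs of members and of Rbfox3 turned as follows. Against EGFRvIII the block gave Cartpt -0.29, Oxt -0.13, Trh -0.091 and Rbfox3 -0.42, and titles 41 to 64 gave Cartpt -0.12, Oxt -0.089, Pmch -0.25, Resp18 -0.075, Trh -0.041 and Ucn3 -0.072. Between title ranges array weights gave Avp 0.044, Pmch 0.025 and Ucn3 -0.24, with Cartpt (-1.96, adjusted p = 0.0248) and Resp18 (-1.40, adjusted p = 0.0422) then past limma's threshold, as was Rbfox3 (-2.52, adjusted p = 0.0046, and -3.14, adjusted p = 0.0118, without E10 del.v2 replicate 2), Rbfox3 as covariate gave Resp18 0.017 and Ucn3 -1.39, and the neuron list Ucn3 -1.13. When arrays were left out, Avp ran from -1.16 to 0.12, Hcrt from -0.83 to 0.18 and Pmch from -1.28 to 0.55, the upper end being without E10 del.v2 replicate 3, and Ucn3 ran from -0.049 (without V544ins replicate 5) to 0.57. In D842V Avp was -0.095 and Oxt -0.20 with array weights, Oxt -0.078 with the block, Oxt -0.18 and Resp18 -0.085 within titles 1 to 30, and in E7 del Trh was 0.16 with the block and 0.13 within titles 41 to 64. Rbfox3 in D842V was -0.95 with the block, -1.17 within titles 1 to 30 and from -0.14 (without D842V replicate 1) to 1.57 when arrays were left out, and it passed with array weights in D842V (1.31, adjusted p = 0.0355) and in E7 del (-5.41, adjusted p = 1.52e-07). The Ucn3 difference in D842V was 1.68 with the mean of both probe sets, since the second is flat. Other causes were not tested.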
